A study of Mus musculus with 45 samples.

Results

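Hepatic gene expression was compared between mice that ate a high-cholesterol diet with an extract of Ganoderma lucidum (HCD+Gl-1) and mice that ate the same diet without an extract (HCD). Ganoderma lucidum is a medicinal mushroom, and Gl-1 is the extract of fruiting bodies of a Mexican strain grown on oak sawdust with nothing added to the substrate. The comparison was defined by its arrays, 3 of HCD+Gl-1 liver and 3 of HCD liver, which are 6 of the 45 arrays of the series, and all 22080 genes of the deposited table entered it. All mice were male C57BL/6, were 7 weeks old at the start and were sacrificed on day 43. The HCD mice received a standard diet with 0.5% cholesterol, the Gl-1 mice that diet with 1% of the extract, and each group held 8 mice. Further liver groups served for values set side by side: Control (the standard diet, with no cholesterol added), HCD+Gl-2 (1% of an extract of the same mushroom grown with acetylsalicylic acid in the substrate) and HCD+Sim (the cholesterol diet with simvastatin, a drug that inhibits cholesterol synthesis). Kidney and brain of the Gl-1 and HCD mice were also hybridised. Expression levels are log2 intensities, 1 probe set per gene, so a level can be compared between arrays and not between genes.

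The liver makes fatty acids and cholesterol from acetyl-CoA, exports sterols into bile and converts cholesterol to bile acids. Transcription of most of these enzymes is governed by the SREBP factors, of which Srebf1 serves mainly fatty acid synthesis and Srebf2 mainly cholesterol synthesis, while the oxysterol receptor LXR raises sterol exporters and Srebf1 itself. Hepatocytes also secrete the acute phase proteins of the blood in response to interleukins, and hold the cytochrome P450 and glutathione S-transferase enzymes that handle foreign compounds.

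RNA was pooled before hybridisation: per the study's methods, arrays A and B each carried a pool from 4 different mice, and array C carried a mixture of those pools. A group therefore has 2 separate pools behind its 3 arrays. Hepatocyte genes such as Alb, which encodes serum albumin, stood at 13.70 to 13.78 on the 6 arrays, and none of 24 pancreas, 20 muscle and 18 squamous epithelium marker genes was called. The muscle markers were lower in 19 of 20 genes, and their summed level was 10.64 to 10.79 on the Gl-1 arrays and 10.82 to 11.00 on the HCD arrays. Array C of the Gl-1 group did not read as a mix for some genes. Its value lay between those of arrays A and B for 26.8% of the 22080 genes, against 26.1% to 33.4% in the 4 other liver groups, and it lay more than 1 log2 unit outside the other 2 arrays for 8 genes. The same count was 3 in HCD, 10 in Control, 7 in HCD+Gl-2 and 33 in HCD+Sim. For Saa2, array C of Gl-1 stood 3.39 below the nearer of arrays A and B, and for Dmbt1 2.27 below. The differences of these genes between Gl-1 and HCD liver are therefore given with and without that array. The median SD of a gene over the 3 arrays was 0.126 in Gl-1 liver and 0.102 in HCD liver, and 0.0778 to 0.0859 in the kidney groups.

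Gl-1 shifted few genes strongly. At the thresholds of the study, an absolute log2 fold change over 0.7 and a Benjamini-Hochberg adjusted p of at most 0.05 (limma, 1 fit over the 45 arrays), 36 genes were differentially expressed (DE): 21 genes were up-modulated in Gl-1 (0.0951% of the genes tested) and 15 were down-modulated (0.0679%). With the adjusted p alone, here termed called, 327 genes were higher (1.48%) and 220 lower (0.996%). The median difference over all genes was -0.01. The 3 arrays of one group lay wholly above the 3 of the other in 35 of the 36 DE genes, which the DE rule favours, and in 14.7% of all genes. Dmbt1 was the exception. Since 3 arrays against 3 cannot give an exact two-sided permutation p under 0.1, single-gene p-values rest on the fit across genes and groups. With each of the 6 arrays left out in turn, 18 of the 36 kept the call every time, and with pools A and B alone 28 kept it. The fit on the 15 liver arrays alone kept 14 of these 36 as DE at the same thresholds and lost 22. The DE count with 1 array left out was 34 to 63, the highest without Gl-1 array B. Just inside the fold threshold were Gstm6 (-0.71) and Slc41a2 (0.71), and just outside it Cyp2b10 (-0.69) and Cyp3a57 (0.69).

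**Figure D1:**
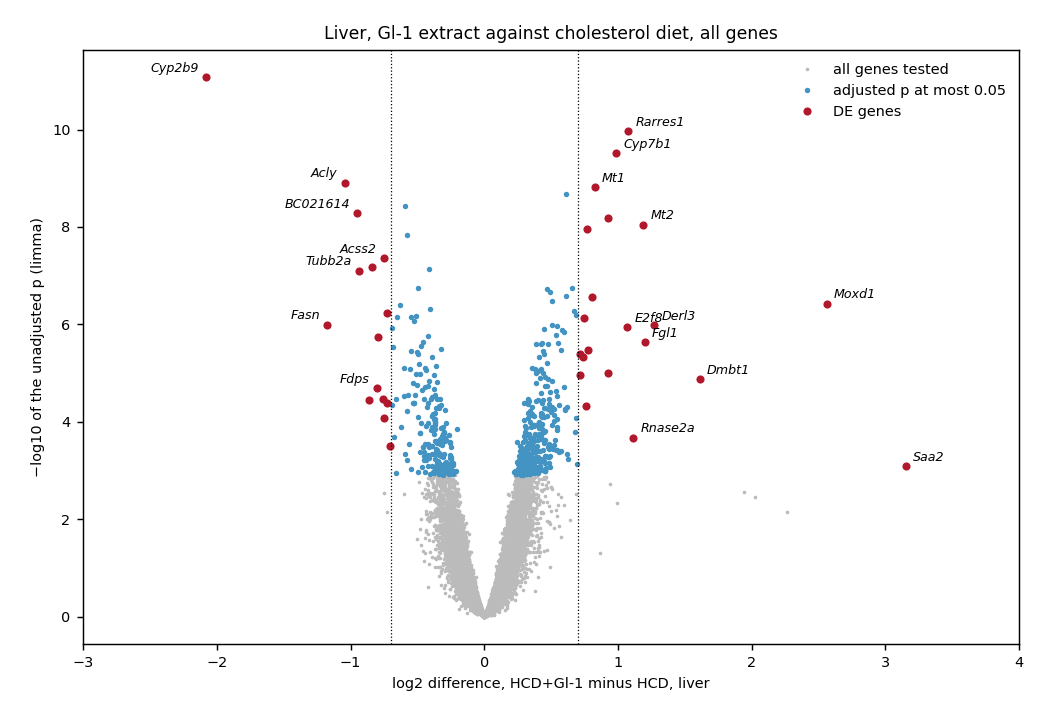
Each point is a gene, with the log2 difference HCD+Gl-1 minus HCD in liver on the horizontal axis and −log10 of the unadjusted limma p on the vertical axis. Dotted lines mark the fold threshold of 0.7, the 36 DE genes are coloured apart from the rest, with Cyp2b9 (-2.08) farthest left and Saa2 (3.15) farthest right.

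Part of the genes of fatty acid synthesis was lower in Gl-1. Of 18 measured genes of this list, 10 were called lower and none higher, against 0.996% of all genes called lower, and the median difference was -0.45. Fasn, the fatty acid synthase, stood at 10.07, 10.29 and 9.60 on Gl-1 arrays A, B and C and at 11.19, 11.30 and 11.01 on the HCD arrays. The Gl-1 arrays were all below the HCD arrays, and array C was the lowest. The difference was -1.18 (SE 0.20, adjusted p = 0.000629), a 2.26-fold lower level. Acly, which makes cytosolic acetyl-CoA from citrate, read 9.12, 9.14 and 8.79 against 10.05, 10.20 and 9.92 (-1.04, SE 0.13, adjusted p = 6.77e-06). Acss2, which makes acetyl-CoA from acetate, read 9.22, 9.11 and 9.12 against 9.87, 10.08 and 9.77 (-0.75, SE 0.11, adjusted p = 7.5e-05). In neither gene did the groups overlap, and both were below HCD on every Gl-1 array.

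The gene of the transcription factor itself, Srebf1, read 9.91, 10.26 and 9.35 against 10.65, 10.67 and 10.61 (-0.80, SE 0.14, adjusted p = 0.000891). The HCD arrays were tight, while the Gl-1 arrays spread over almost 1 log2 unit with array C lowest. Without array C the difference of Srebf1 was -0.55 and it was not DE. Smaller falls were called for Elovl6, a fatty acid elongase (-0.56, adjusted p = 0.0227), Acaca, the cytosolic acetyl-CoA carboxylase (-0.55, adjusted p = 0.00242), and Mid1ip1, its activator (-0.44, adjusted p = 0.00244). Pklr, the liver pyruvate kinase, fell by 0.45 (adjusted p = 0.00636). The desaturase Scd1, by contrast, differed by -0.06 (adjusted p = 0.819) and the desaturase Fads2 by 0.05 (adjusted p = 0.746). The number called in the list was 7 to 12 with 1 array left out and 1 in the fit on the liver arrays alone.

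The promoter of Fasn is shown because it is the most changed gene of this list and its upstream bases hold the letters of a sterol response element core. The sequence is the 250 bases before the RefSeq start (GRCm38.p6), and capitals mark TCACCC, searched on both strands.
Fasn (chr11:120824548-120824797, reverse strand): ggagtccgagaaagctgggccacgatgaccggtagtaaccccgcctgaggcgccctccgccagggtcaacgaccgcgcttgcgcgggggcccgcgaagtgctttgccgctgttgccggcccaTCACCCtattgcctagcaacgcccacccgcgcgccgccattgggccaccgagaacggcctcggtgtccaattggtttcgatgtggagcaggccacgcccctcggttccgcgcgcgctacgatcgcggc
The match lies 128 to 123 bases before the start. TCACCC occurred in 13.8% of the 32851 promoters of the RefSeq table, and in the promoters of Fasn, Srebf1 and Acss2 among the 10 called genes of the list, all of which had a promoter there. A match of so short a motif describes the letters and is no evidence of binding.

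Cholesterol synthesis was lower in part of the pathway. Of 20 measured enzymes, 6 were called lower and none higher, against 0.996% of all genes called lower, with a median of -0.22. Fdps, the farnesyl diphosphate synthase, read 7.22, 7.18 and 6.90 on the Gl-1 arrays and 7.85, 8.05 and 7.81 on the HCD arrays (-0.80, SE 0.16, adjusted p = 0.00442). Nsdhl, a sterol dehydrogenase of the later steps, read 8.38, 8.17 and 8.40 against 9.12, 9.31 and 8.80 (-0.76, SE 0.16, adjusted p = 0.00636). Every Gl-1 array was below every HCD array in both. The other called enzymes were Lss (-0.54, adjusted p = 0.00379), Pmvk (-0.51, adjusted p = 0.000479), Dhcr7 (-0.45, adjusted p = 0.0466) and Tm7sf2 (-0.35, adjusted p = 0.038). Sqle, the squalene epoxidase, differed by 0.21 (adjusted p = 0.47) and was not called. None of 12 genes of sterol sensing and uptake was called, with Insig1 nearest at -0.47 (adjusted p = 0.0792). With Gl-1 array C left out 2 cholesterol synthesis genes were called, with HCD array B left out 3, and in the fit on the liver arrays alone none, where 2298 of all genes had an unadjusted p under 0.05.

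Of 12 genes of sterol export and LXR 3 were called, all lower, against 0.996% of all genes called lower. Abcg8 and Abcg5 encode both chains of the transporter that moves sterols into bile, and Soat2 esterifies cholesterol. Abcg8 read 10.80, 10.78 and 10.68 on the Gl-1 arrays and 11.32, 11.37 and 11.36 on the HCD arrays (-0.60, SE 0.07, adjusted p = 1.15e-05). Abcg5 fell by 0.45 (adjusted p = 0.023) and Soat2 by 0.42 (adjusted p = 0.00085). Abca1 (0.03) and the LXR gene Nr1h3 (-0.21, adjusted p = 0.398) were not called. With 1 array left out Abcg5 passed in 1 of 6 fits and Abcg8 and Soat2 in all 6, and the fit on the liver arrays alone called 1 gene of the list. Among 21 genes of lipid droplets and triglyceride storage, Fitm1 fell by 0.55 (adjusted p = 0.000479) and Plin2, which coats lipid droplets, was higher by 0.41 (adjusted p = 0.0356). The Plin2 call held in 1 of 6 fits with 1 array left out, that without Gl-1 array B, and not with pools A and B alone (adjusted p = 0.242). Fatty acid oxidation had 4 of 29 genes called higher, against 1.48% of all genes, and none lower, with a median of 0.19. The 4 were Pex11a (0.49), Eci2 (0.42), Decr1 (0.41) and Cpt1a (0.28), of which Cpt1a controls entry of fatty acids into mitochondria. Without Gl-1 array C none of the 29 was called, without Gl-1 array A or HCD array B 1, without HCD array A 2, and without Gl-1 array B 14. The 6 Cyp4a genes, fatty acid omega hydroxylases, differed by 0.04 to 0.99 with a median of 0.53, and none was called (lowest adjusted p 0.0959, Cyp4a14). The PPAR genes were not called either, with Ppara at 0.20 (adjusted p = 0.391), Ppard at -0.17 (adjusted p = 0.309) and Pparg at -0.23 (adjusted p = 0.179).

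Bile acid genes moved in 1 place. Cyp7b1, the oxysterol hydroxylase of the alternative pathway of bile acid synthesis, stood at 11.78, 11.47 and 12.12 in Gl-1 and at 10.75, 10.87 and 10.81 in HCD. The groups were well apart, with the HCD arrays within 0.2 of each other. The difference was 0.98 (SE 0.12, adjusted p = 2.25e-06). Cyp7b1 was the only called gene of 18, against 1.48% of all genes called higher. Cyp7a1, the rate-limiting enzyme of the classical pathway, differed by -0.17 (adjusted p = 0.697). E2f8, a repressor of the E2F family, read 8.30, 7.90 and 8.50 against 7.39, 6.81 and 7.30 (1.07, SE 0.18, adjusted p = 0.000644). Of 28 genes of E2F factors and the cell cycle, E2f8 and Ccnd1 (0.42, adjusted p = 0.0135) were called higher, against 1.48% of all genes. In the fit on the liver arrays alone neither was called (adjusted p = 0.0874 for E2f8 and 0.231 for Ccnd1). The Ccnd1 call was lost without Gl-1 array A or HCD array C. E2f7, the closest relative of E2f8, differed by -0.08 (adjusted p = 0.743).

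**Figure D2:**
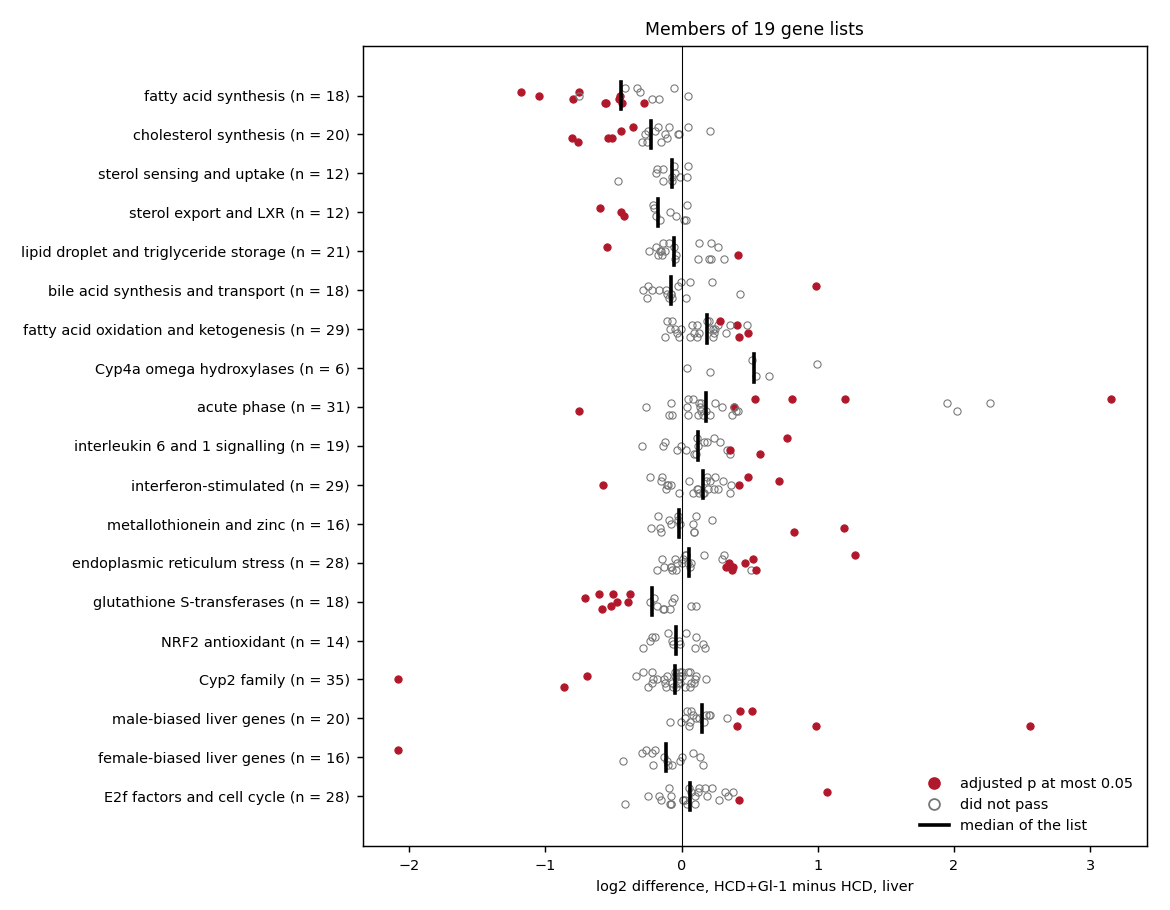
Each circle is a gene of the named list, placed by its log2 difference HCD+Gl-1 minus HCD in liver, filled red where the adjusted p was at most 0.05. Black bars are list medians, which were -0.45 for fatty acid synthesis, -0.22 for both cholesterol synthesis and the glutathione S-transferases, and 0.53 for the Cyp4a genes, none of them called.

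Moxd1 and Cyp2b9, which differ between the sexes in mouse liver, showed large differences in opposite directions. Moxd1, a monooxygenase-like gene known as male-biased in liver, read 10.38, 10.36 and 10.38 on the Gl-1 arrays and 7.88, 7.59 and 7.96 on the HCD arrays. The Gl-1 arrays agreed within 0.02 and stood far above HCD. Its difference of 2.56 (SE 0.42, adjusted p = 0.000345) equals 5.9-fold, and the adjusted p was 0.123 in the fit on the liver arrays alone and 1.17e-06 on the 6 arrays alone. Array C of HCD+Sim read 6.41, against 9.84 and 10.05 for arrays A and B. It enters the liver fit and the fit over the 45 arrays, and not the 6-array fit. Its part in these p-values was not tested. Cyp2b9, a cytochrome P450 known as female-biased, read 6.41, 6.07 and 6.96 in Gl-1 and 8.71, 7.88 and 9.08 in HCD (-2.08, SE 0.21, adjusted p = 1.84e-07), a 4.22-fold lower level. Of 20 measured male-biased genes 5 were called higher, against 1.48% of all genes, and none lower. The 5 were Moxd1, Cyp7b1, Selenbp2 (0.52), Ugt2b38 (0.43) and C6 (0.41). Other male-biased genes such as Mup20 (0.06, adjusted p = 0.947) and Elovl3 (-0.08, adjusted p = 0.868) were not called, and of 16 female-biased genes Cyp2b9 alone was called. The male-biased count was 2 without Gl-1 array A and 1 in the fit on the liver arrays alone.

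Within the Cyp2 family, 3 of 35 genes were called, all lower, against 0.996% of all genes called lower: Cyp2b9, Cyp2c38 and Cyp2b10. Only Cyp2b9 of these was called in the fit on the liver arrays alone and in that on the 6 arrays alone. For Cyp2c38 the adjusted p was 0.222 and 0.0648 in those fits, and for Cyp2b10 0.221 and 0.242. Cyp2c38 stood at 7.52, 7.27 and 7.89 against 8.49, 8.54 and 8.24 (-0.86, SE 0.18, adjusted p = 0.00636), with Gl-1 below HCD on every array. Cyp2b10, a gene induced through the receptor CAR, differed by -0.69 (adjusted p = 0.00726), and the CAR gene Nr1i3 by 0.18 (adjusted p = 0.482). Of 18 measured glutathione S-transferase genes 8 were called lower and none higher, against 0.996% of all genes called lower, with a median of -0.22. Gstm6 read 9.29, 9.32 and 8.82 against 9.84, 10.04 and 9.66 (-0.71, SE 0.18, adjusted p = 0.0242), and Gstm3 read 11.21, 11.22 and 11.05 against 11.85, 11.56 and 11.82 (-0.58, SE 0.08, adjusted p = 2.71e-05). The groups did not overlap in either gene. Gstm2 (-0.60), Gstm4 (-0.52), Gstt3 (-0.51), Mgst3 (-0.48), Gstt1 (-0.39) and Gstm7 (-0.38) completed the 8, while none of 14 NRF2 antioxidant genes was called. Gstm genes are close paralogues whose probes may share target RNA. Without Gl-1 array C the count was 3, in the fit on the liver arrays alone 1 and in that on the 6 arrays alone 0, and the DE call of Gstm6 was lost when HCD array A or B or Gl-1 array C was left out.

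The metallothionein genes Mt1 and Mt2, which encode small proteins that bind zinc and copper, rose. Mt2 read 11.09, 11.17 and 10.90 in Gl-1 and 9.93, 9.27 and 10.41 in HCD. All Gl-1 arrays were above all HCD arrays, and HCD array B was the lowest. The difference was 1.19 (SE 0.16, adjusted p = 1.97e-05). Mt1 read 12.01, 11.90 and 11.99 against 11.19, 10.83 and 11.40 (0.83, SE 0.10, adjusted p = 6.77e-06), with the same order of the HCD arrays. The other 14 genes of the list, zinc transporters among them, were not called. The metallothioneins Mt3 and Mt4 differed by -0.07 and -0.09, and the factor Mtf1 by -0.17 (adjusted p = 0.126).

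The promoters of both metallothioneins are shown because the pair moved together and the genes are neighbours on chromosome 8. Capitals mark TGCNCNC, a loosened form of the metal response element core, on either strand, in the 250 bases before the RefSeq start (GRCm38.p6). The core itself allows fewer letters, so a marked stretch need not be a metal response element core.
Mt1 (chr8:94178839-94179088, forward strand): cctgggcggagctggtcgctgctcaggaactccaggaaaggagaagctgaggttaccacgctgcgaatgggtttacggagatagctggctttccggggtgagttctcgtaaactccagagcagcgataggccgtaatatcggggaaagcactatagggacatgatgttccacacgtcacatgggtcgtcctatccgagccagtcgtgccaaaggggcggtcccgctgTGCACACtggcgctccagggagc
Mt2 (chr8:94172368-94172617, forward strand): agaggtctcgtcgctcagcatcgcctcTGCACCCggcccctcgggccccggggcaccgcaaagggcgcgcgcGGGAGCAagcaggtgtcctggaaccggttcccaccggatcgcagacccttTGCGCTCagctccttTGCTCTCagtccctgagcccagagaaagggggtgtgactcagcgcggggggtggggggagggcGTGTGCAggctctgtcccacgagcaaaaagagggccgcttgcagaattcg
The window of Mt1 held 1 match and that of Mt2 held 5. This loosened form occurred in 44.4% of all promoters of the table, so its presence does not set these promoters apart. The stricter core was not searched.

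Several acute phase genes were higher in Gl-1, and for some of them the 3 Gl-1 arrays disagreed widely. Of 31 genes 5 were called higher (16.1%, against 1.48% of all genes) and 1 lower (3.23%, against 0.996%), with a median of 0.18. Saa2, a serum amyloid A protein of the acute phase, read 11.28 and 11.96 on Gl-1 arrays A and B but 7.89 on array C, against 7.29, 6.91 and 7.48 in HCD. Array C of Gl-1 was thus only just above the HCD arrays. The difference was 3.15 with an SE of 0.86 (adjusted p = 0.0407). It was 4.39 without Gl-1 array C, and with any of the 5 other arrays left out Saa2 was not DE. Its neighbour Saa1 showed the same order at 11.03, 11.63 and 8.25 against 8.08, 7.83 and 8.21 (2.26, adjusted p = 0.118). Lcn2, a siderophore-binding protein, read 11.87, 12.31 and 9.32 against 9.34, 9.06 and 9.26 (1.94, adjusted p = 0.0763). In Lcn2 and in Orm2, an acid glycoprotein that read 10.12, 10.98 and 7.62 against 7.72, 7.62 and 7.32 (2.02, adjusted p = 0.0831), array C lay within the range of the HCD arrays. Control livers stood at 10.57, 8.40 and 10.91 for Saa2, and array C was also far below arrays A and B in HCD+Gl-2 (10.97, 11.72 and 6.74) and HCD+Sim (11.95, 11.24 and 7.12). Without Gl-1 array C 8 acute phase genes were called higher, and with pools A and B alone 9, while without Gl-1 array A, HCD array A or HCD array B 2 were, as against 1 in the fit on the liver arrays alone.

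Other acute phase genes did not show that split. Fgl1, a fibrinogen-like protein secreted by hepatocytes, read 11.36, 11.48 and 11.33 against 10.19, 10.38 and 10.00 (2.3-fold, SE 0.22 on the log2 scale, adjusted p = 0.00106). Steap4, a metalloreductase, read 10.24, 10.16 and 10.37 against 9.50, 9.34 and 9.51 (0.81, SE 0.13, adjusted p = 0.000281). The Gl-1 arrays agreed closely in both genes and cleared every HCD array. Hp, which binds haemoglobin (0.39, adjusted p = 0.0409), and Lrg1 (0.54, adjusted p = 0.0268) were called as well. With 1 array left out the Hp call held in 1 of 6 fits, that without Gl-1 array C, and the Lrg1 call in 3. In the fit on the liver arrays alone the adjusted p was 0.122 for Fgl1, which was not called there, and 0.0243 for Steap4. Hamp2, a paralogue of the iron hormone hepcidin, moved the other way at 8.77, 9.36 and 9.08 against 9.74, 9.95 and 9.78 (-0.75, SE 0.17, adjusted p = 0.0106), and hepcidin itself (Hamp) differed by -0.07 (adjusted p = 0.86). The Hamp2 call was lost without Gl-1 array A, Gl-1 array C or HCD array B. Among 19 genes of interleukin 6 and 1 signalling, 3 were called, all higher, against 1.48% of all genes called higher. The interleukin 1 receptor gene Il1r1 read 10.10, 9.90 and 10.30 against 9.33, 9.34 and 9.32 (0.77, SE 0.11, adjusted p = 2.23e-05), and the transcription factors Cebpb (0.58, adjusted p = 0.000677) and Stat3 (0.36, adjusted p = 0.00242) were higher on every Gl-1 array. The cytokine genes Il6 (-0.03, adjusted p = 0.93), Il1b (0.19, adjusted p = 0.577) and Tnf (-0.29, adjusted p = 0.129) were not called.

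Part of the genes of protein folding in the endoplasmic reticulum rose. Of 28 genes of this list 8 were called higher and none lower, against 1.48% of all genes called higher, although the median was 0.05. Derl3, which helps remove misfolded proteins from the endoplasmic reticulum, read 8.62, 8.82 and 8.45 in Gl-1 and 7.57, 6.83 and 7.67 in HCD. The Gl-1 arrays were all higher, and HCD array B was the lowest. The difference was 1.27 (SE 0.22, adjusted p = 0.000629). The others were the co-chaperones Dnajb11 (0.55, adjusted p = 0.00106), Dnajc3 (0.47, adjusted p = 0.000222) and Sdf2l1 (0.53, adjusted p = 0.0203), the chaperone Hsp90b1 (0.38, adjusted p = 0.00242) and the disulfide isomerases Pdia3 (0.37), Pdia6 (0.35) and Pdia4 (0.33). Hspa5, the main chaperone of this compartment, differed by -0.04 (adjusted p = 0.918) and was not called, nor were the stress factors Ddit3 (-0.08, adjusted p = 0.794), Atf4 (-0.13, adjusted p = 0.52) and Xbp1 (0.00, adjusted p = 0.991). With 1 array left out 4 to 11 genes were called, the fewest without Gl-1 array C or HCD array B, and in the fit on the liver arrays alone none.

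The promoters of Derl3 and Hsp90b1 are shown because they hold the full endoplasmic reticulum stress element, CCAAT followed by any 9 bases and CCACG. Capitals mark it on either strand in the 250 bases before the RefSeq start (GRCm38.p6).
Derl3 (chr10:75893148-75893397, forward strand): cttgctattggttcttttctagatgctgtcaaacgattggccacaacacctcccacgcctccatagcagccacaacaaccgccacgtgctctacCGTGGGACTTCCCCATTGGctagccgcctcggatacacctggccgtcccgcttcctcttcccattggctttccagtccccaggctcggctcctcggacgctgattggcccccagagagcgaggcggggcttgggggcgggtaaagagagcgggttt
Hsp90b1 (chr10:86705445-86705694, reverse strand): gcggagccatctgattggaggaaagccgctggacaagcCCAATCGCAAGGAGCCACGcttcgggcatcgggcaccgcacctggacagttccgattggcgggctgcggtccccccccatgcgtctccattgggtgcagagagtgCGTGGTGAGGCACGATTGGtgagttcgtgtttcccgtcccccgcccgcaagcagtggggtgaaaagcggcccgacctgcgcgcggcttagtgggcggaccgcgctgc
This element was in 0.113% of the 32851 promoters. It was in 4 of the 8 called genes of the list (Derl3, Hsp90b1, Pdia6 and Dnajc3) and in 9 of the 23 measured genes of the list that had a promoter, Hspa5 and Calr among them, so called and uncalled genes both held it.

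The remaining DE genes belong to no single pathway. Rarres1, a gene induced by retinoic acid, read 9.89, 9.77 and 9.91 against 8.87, 8.86 and 8.61 (1.08, SE 0.12, adjusted p = 1.18e-06). Nucb2, the precursor of nesfatin, read 7.42, 7.47 and 7.02 against 6.42, 6.30 and 6.41 (0.93, SE 0.12, adjusted p = 1.59e-05). Rab30, a small GTPase of the Golgi, read 8.02, 7.37 and 8.25 against 6.83, 6.80 and 7.23 (0.93, SE 0.18, adjusted p = 0.00277). In each of these genes the lowest Gl-1 array was above the highest HCD array, by the least in Rab30. Rab30 lost the DE call without Gl-1 array C. Its adjusted p was 0.0709 in the fit on the liver arrays alone and 0.164 on the 6 arrays alone. Dio1, the deiodinase that activates thyroid hormone, read 10.63, 10.41 and 10.40 against 9.73, 9.84 and 9.59 (0.76, adjusted p = 0.00764). DE genes of similar size were B3galt1, a galactosyltransferase (0.78, adjusted p = 0.0013), Slc25a30, a mitochondrial carrier (0.74, adjusted p = 0.000497), Slc41a2, a magnesium transporter (0.71, adjusted p = 0.00286), and Gm527 (0.74, adjusted p = 0.00156). Mx2, an interferon-induced GTPase, read 6.59, 6.33 and 6.56 against 5.90, 5.77 and 5.66 (0.72, adjusted p = 0.00142). Of 29 interferon-stimulated genes 3 were called higher and 1, Cxcl9 (-0.58, adjusted p = 0.0358), lower, against 1.48% and 0.996% of all genes. With 1 array left out the higher count was 1 to 7, the Cxcl9 call held in 2 of 6 fits, and the fit on the liver arrays alone called none of the 29.

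Among genes that were lower, BC021614 read 9.61, 9.64 and 9.27 against 10.50, 10.66 and 10.22 (-0.95, SE 0.13, adjusted p = 1.44e-05). Tubb2a, a tubulin, read 7.50, 7.39 and 7.35 against 8.52, 7.76 and 8.76 (-0.94, SE 0.14, adjusted p = 0.00011). Aqp8, a water channel, read 8.96, 8.71 and 8.94 against 9.79, 9.75 and 9.59 (-0.84, SE 0.13, adjusted p = 0.000105). No array of Gl-1 reached an HCD array in these genes, and HCD array B of Tubb2a came nearest. Chrna4, a nicotinic receptor subunit, fell by 0.73 (adjusted p = 0.000451) and Xlr3a by 0.73 (adjusted p = 0.00699). The clock factor Npas2 was at -0.66 (adjusted p = 0.0477), a call that was lost in 5 of 6 fits with 1 array left out and under the replicate block. None of 22 immediate early genes and none of 20 genes of glucose metabolism was.

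**Figure D3:**
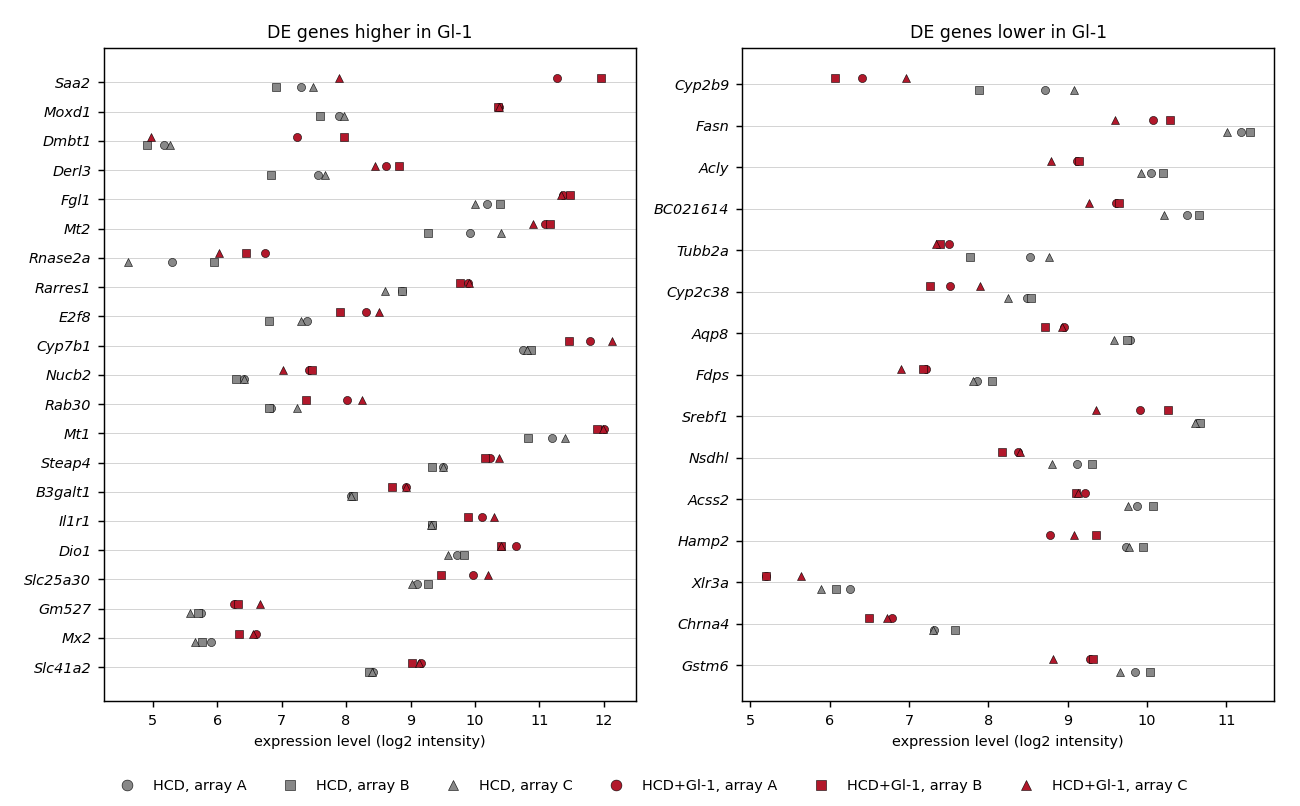
Levels (log2 intensity) of the 21 DE genes higher in Gl-1 (left) and the 15 lower (right) on each liver array, grey for HCD and red for HCD+Gl-1, with circles for pool A, squares for B and triangles for C. Groups overlap in Dmbt1 alone, where Gl-1 array C (4.97) lies among the HCD arrays, and Gl-1 array C of Saa2 (7.89) lies far from the other 2.

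Markers of other cells moved in few genes. In RNA of whole liver, fewer cells of a type and less RNA per cell cannot be told apart. Dmbt1, a secreted scavenger protein of bile duct cells, read 7.23, 7.97 and 4.97 in Gl-1 and 5.17, 4.91 and 5.26 in HCD (1.61, SE 0.32, adjusted p = 0.00333), and 2.49 without Gl-1 array C. Array C was within the HCD range while arrays A and B were above it, and the 11 other cholangiocyte markers, Krt19 (0.04) and Epcam (-0.02) among them, were not called. Rnase2a, an eosinophil-type ribonuclease, read 6.73, 6.45 and 6.02 against 5.30, 5.95 and 4.62 (1.11, SE 0.27, adjusted p = 0.0193), with the groups less than 0.1 apart at their nearest arrays, and it lost the DE call without Gl-1 array A, HCD array A or HCD array C. The eosinophil genes Epx (-0.01) and Prg2 (-0.17) were not called, and the summed level of the 18 granulocyte markers was 9.80 to 9.90 in Gl-1 and 9.78 to 9.88 in HCD. Cd74 (-0.41, adjusted p = 0.00355) and H2-Ab1 (-0.30, adjusted p = 0.0396), both of antigen presentation on class II molecules, were called lower among 17 lymphocyte and antigen presentation markers, whose sum was 11.14 to 11.32 in Gl-1 and 11.45 to 11.51 in HCD. Of 4 measured erythroid genes the globin Hbb-bs fell, from 11.50, 11.48 and 11.37 to 10.81, 10.91 and 10.68 (-0.65, SE 0.11, adjusted p = 0.000479). Cd163, a macrophage receptor, was the called gene of 15 macrophage markers (0.43, adjusted p = 0.00988). The lymphocyte and macrophage calls rest on few arrays, as without Gl-1 array C neither list had a call. No stellate, endothelial, adipose or hepatocyte marker was called. Summed levels were lower without overlap for the 10 sinusoidal endothelium markers (12.06 to 12.19 in Gl-1, 12.25 to 12.34 in HCD, no marker higher). The same held for the 12 stellate and fibroblast markers (11.92 to 12.00 against 12.06 to 12.14). Such a gap was not particular to these markers. Sums also did not overlap for the glutathione S-transferases (15.31 to 15.38 against 15.45 to 15.50). The male-biased genes were apart in the other direction (16.36 to 16.48 against 16.23 to 16.27). Of all single genes, 14.7% did not overlap between the groups. The part of the cell types named here in the results above was not tested.

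In kidney and brain of the same groups none of the 36 genes was called. Gl-1 against HCD gave 29 DE genes in kidney (0.131% of the genes tested) and 2 in brain (0.00906%), none of them among the 36. Without dim genes the kidney count was 8 and the brain count 1. The 36 genes differed by -0.29 to 0.48 in kidney and by -0.30 to 0.18 in brain, where limma called none and 3 and 1 of them had an unadjusted p under 0.05. Cyp7b1 (0.42, adjusted p = 0.183) and Slc25a30 (0.48, adjusted p = 0.115) were the nearest in kidney. Tested directly, the liver response minus the kidney response was DE for 49 genes (0.222%; 26 without dim genes), 12 of them among the 36, which were chosen for their liver response. Those with the largest differences were Cyp2b9 (-1.91, SE 0.30, adjusted p = 0.000328), Mt2 (1.31, SE 0.23, adjusted p = 0.0013), Rab30 (1.22, SE 0.26, adjusted p = 0.0134) and Rarres1 (1.15, SE 0.17, adjusted p = 0.000139). Fasn (-1.06, adjusted p = 0.105) and Moxd1 (2.43, adjusted p = 0.0501) missed the threshold.

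Against the other extract, 38 genes were DE in Gl-1 minus HCD+Gl-2 liver (0.172%), 4 of them among the 36. Dmbt1 was 1.79 higher in Gl-1 (SE 0.32, adjusted p = 0.0012), with Gl-2 arrays at 4.83, 5.03 and 4.94. Gl-1 array C, at 4.97, lay within that range, so the difference came from Gl-1 arrays A and B. The difference without Gl-1 array C is not given for this comparison. Rnase2a was 0.93 higher (adjusted p = 0.0448). Cyp2b9 was 1.09 higher in Gl-1 (SE 0.21, adjusted p = 0.00275), and Mt2 was lower by 0.92 (SE 0.16, adjusted p = 0.00108), so both genes stood farther from HCD in Gl-2 than in Gl-1. For Fasn (-0.34, SE 0.20, adjusted p = 0.364), Acly (-0.18, SE 0.13, adjusted p = 0.484), Fdps (-0.01, SE 0.16, adjusted p = 0.982) and Acss2 (0.03, SE 0.11, adjusted p = 0.926) no difference between the extracts was detectable with 3 arrays each. The fit on the liver arrays alone gave no DE gene between the extracts, while 2780 genes had an unadjusted p under 0.05 there.

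Set beside Control, Gl-1 livers stood near the standard diet for some genes and away from it for others. Gl-1 minus Control gave 71 DE genes (0.322%), 10 of them among the 36, and HCD minus Control 54 (0.245%), 8 of them among the 36. The latter comparison shares the HCD arrays, and the former the Gl-1 arrays, with the comparison that chose the genes, so the values are only set side by side. Moxd1 was at 10.15, 10.00 and 10.31 in Control, and HCD minus Control was -2.34 (adjusted p = 0.000836) while Gl-1 minus Control was 0.22 (adjusted p = 0.841). For Mt2 HCD minus Control was -1.02 (adjusted p = 0.000185) and Gl-1 minus Control was 0.17 (adjusted p = 0.63). For Srebf1 the 2 values were 1.14 (adjusted p = 1.78e-06) and 0.34 (adjusted p = 0.176). These 3 were closer to Control in Gl-1 than in HCD. Cyp2b9 was 1.12 above Control in Gl-1 (adjusted p = 0.00129) and 3.20 above it in HCD. Fdps and Nsdhl, the 2 DE genes of cholesterol synthesis, stood farther below Control in Gl-1 than in HCD. Fdps was 1.13 lower in Gl-1 than in Control (-1.13, adjusted p = 3.58e-05) and Nsdhl 1.12 lower (-1.12, adjusted p = 3.5e-05), with HCD at -0.33 and -0.36 from Control. Acss2 (-0.98, adjusted p = 2.6e-07), Acly (-0.71, adjusted p = 0.000922) and Chrna4 (-1.12, adjusted p = 2.6e-07) were also lower than in Control, and Il1r1 (0.71, adjusted p = 4.34e-05), Rarres1 (0.72, adjusted p = 0.000257) and Derl3 (0.95, adjusted p = 0.0087) higher.

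**Figure D4:**
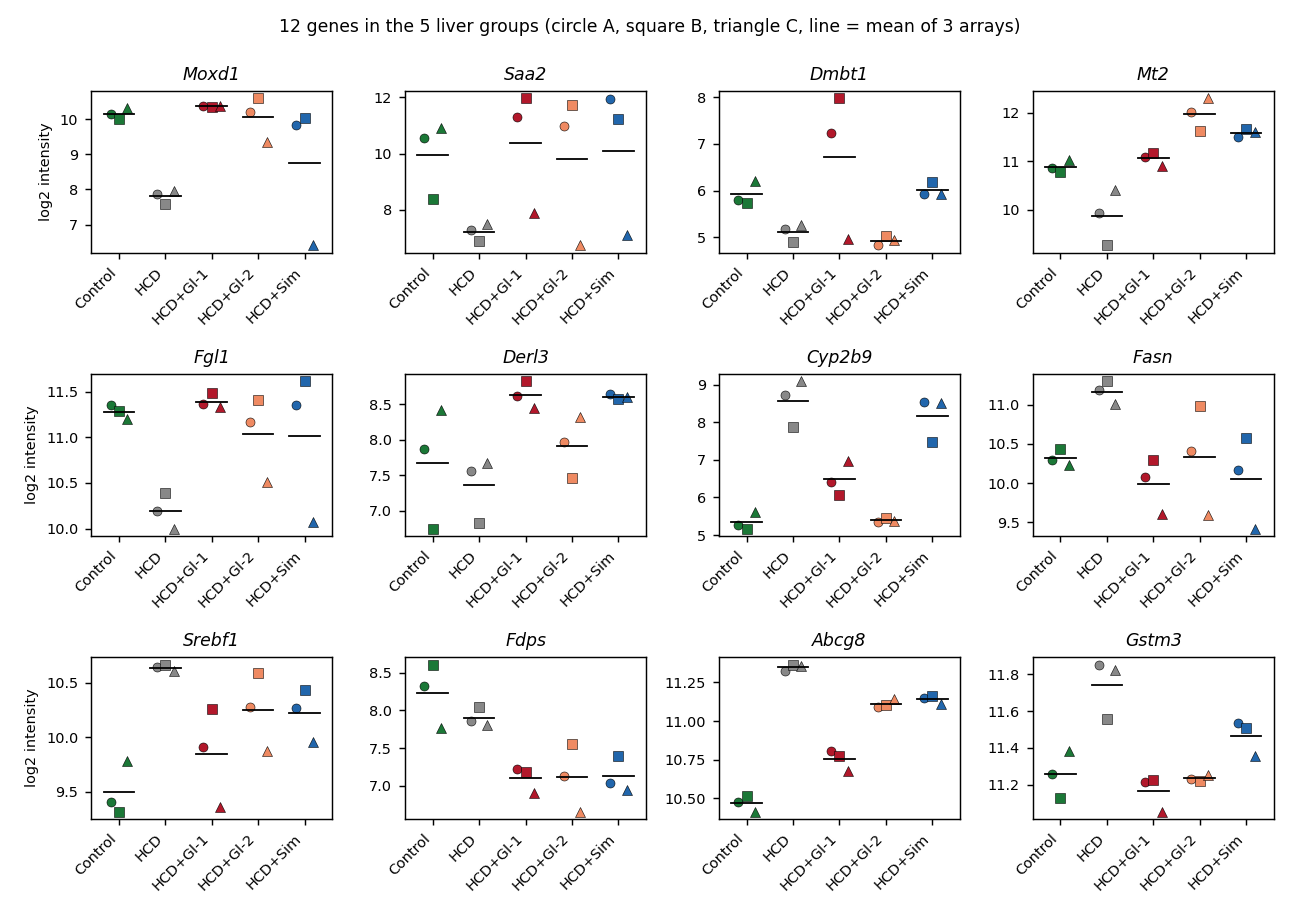
Levels (log2 intensity) of 12 genes on the 3 arrays of each of the 5 liver groups, with lines at group means. Moxd1 and Mt2 of Gl-1 lie near Control, Fdps of Gl-1 lies below both Control and HCD, and array C of the Gl-1, Gl-2 and Sim groups lies far below arrays A and B for Saa2.

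**Figure D5:**
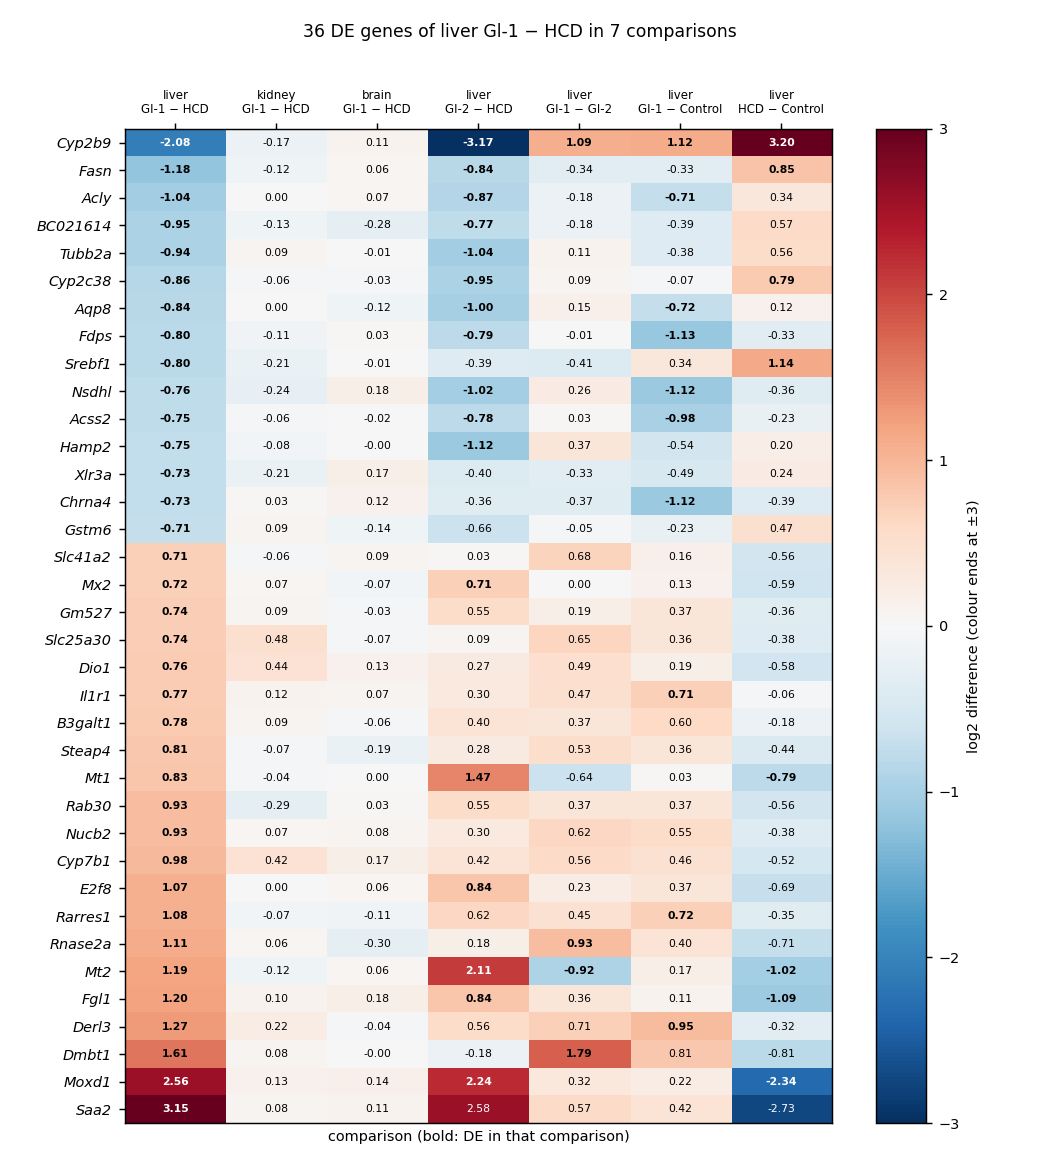
Log2 differences of the 36 DE genes (rows) in 7 comparisons (columns), red for higher and blue for lower in the group named first, in bold where the gene was DE in that comparison. The kidney and brain columns are pale throughout (-0.30 to 0.48), while the HCD minus Control column ranges from -2.73 for Saa2 to 3.20 for Cyp2b9.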

How the data were processed

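Liver, kidney and brain RNA pools of 5 diet groups were hybridised to Affymetrix mouse gene ST arrays. According to the methods, the authors corrected the intensities with RMA, normalized them by quantiles, applied ComBat to a batch effect and kept 1 probe set per gene. The deposited values are log2 intensities, and the batches given to ComBat and the genome build are not given in the sources used here. Any shift that ComBat made cannot be undone from the table. Groups were taken from the sample labels. limma 3.58.1 (R 4.3.3) fitted 15 group means over the 45 arrays with empirical Bayes moderation (residual degrees of freedom 30, prior 7.34), and p-values were adjusted by Benjamini-Hochberg across the 22080 genes of each comparison. Single-gene p-values measure the spread between arrays, which are not separate animals. The fit counted array C as a replicate of its own, although the methods describe it as a mixture of pools A and B. Its degrees of freedom are thus more than the separate pools provide, which also bears on the SEs and adjusted p-values given here. The 13 genes whose names were turned into dates were tested and not named, and single values of a few other list genes are not reported here. Members and gene lists were chosen with earlier results of these data known. All DE genes could be named, values of every array were given for up to 10 DE genes per direction and for DE genes of lists, and up to 4 further genes per list were named by adjusted p. Called genes beyond these in the glutathione S-transferase and endoplasmic reticulum lists, genes named as not called for their known role, and the array values of Orm2, Saa1, Lcn2, Hbb-bs, Abcg8 and Gstm3 were chosen after their values were seen. The fit was tested on simulated data. Promoters came from RefSeq (GRCm38.p6), which held 29 of the 36 DE genes, matched by symbol. Alternatives were fits on fewer arrays, pools A and B alone, a filter on dim genes, a block for the pool letter, renewed normalization within tissues, trend and robust moderation, no fold threshold, and each array left out. Figures were drawn with matplotlib 3.10.9.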

Additional observations from a re-analysis of the deposited data

Results flagged for a closer look

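Of the 36 DE genes of liver, 12 also passed the DE thresholds in the test of the liver response minus the kidney response to Gl-1. Lower in liver relative to kidney were Cyp2b9 (-1.91, adjusted p = 0.000328), Acly (-1.05, adjusted p = 0.00133), Tubb2a (-1.03, adjusted p = 0.00465), Aqp8 (-0.85, adjusted p = 0.0134), BC021614 (-0.82, adjusted p = 0.0185) and Chrna4 (-0.76, adjusted p = 0.0253). Higher were Mt2 (1.31, adjusted p = 0.0013), Rab30 (1.22, adjusted p = 0.0134), Rarres1 (1.15, adjusted p = 0.000139), Steap4 (0.87, adjusted p = 0.0133), Mt1 (0.87, adjusted p = 0.000789) and Nucb2 (0.86, adjusted p = 0.00979). In kidney each of the 12 differed by less than 0.3 in size between Gl-1 and HCD. The 12 were drawn from genes selected for a large liver response, so their share is not compared with other genes.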

How the results depend on the processing

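With 1 array left out in turn, the DE genes of liver Gl-1 against HCD numbered 18 to 46 higher and 14 to 19 lower, the liver minus kidney response 42 to 90, Gl-1 against Gl-2 29 to 93, Gl-1 against Control 68 to 95, and HCD against Control 50 to 62. The counts of 46, 90 and 93 came without Gl-1 array B, and 4 of the 36 genes were then lost and 31 others gained. Without Gl-1 array C, 10 of the 36 were lost and 13 gained. The fit on the liver arrays alone gave 9 higher and 5 lower genes, 0 between Gl-1 and Gl-2, 32 against Control and 21 for HCD against Control, and the fit on the 6 arrays alone gave 8 lower genes. Pools A and B alone gave 5 DE genes between Gl-1 and Gl-2, 116 against Control, 98 for HCD against Control and 7 in brain. Without dim genes kidney had 8, brain 1 and the liver minus kidney response 26. With no fold threshold the counts were 327 higher and 220 lower, 870 against Gl-2, 791 against Control, 296 for HCD against Control, 59 in kidney, 4 in brain and 86 for liver minus kidney. The cause of these shifts was not tested.

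With the pool letter as a replicate block, liver Gl-1 against HCD gave 25 higher and 16 lower genes, all 36 included, and brain 1. Over all genes, same-letter deviations of Gl-1 and HCD liver correlated at 0.14, 0.04 and -0.03. This cannot show whether the letters go together in some genes. The summed endoplasmic reticulum list was lowest on array B and highest on C in every liver group. On A, B and C it read 15.15, 15.00 and 15.27 in Gl-1 and 14.99, 14.88 and 15.05 in HCD. The immediate early list took different orders (12.29, 12.25 and 12.28 in Gl-1, 12.30, 12.43 and 12.26 in HCD). A shared effect of the letters was not tested. No DE gene changed direction under these alternatives. Uncalled genes that did were Clock (-0.049), Cyp3a59 (-0.058) and Slc4a1 (0.021) with pools A and B alone. With 1 array left out Clock ranged from -0.026 to 0.34, Cyp3a59 from -0.0055 to 0.17 and Slc4a1 from -0.12 to 0.031. The number of arrays, 2 separate pools per group, limits the precision.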

Other observations

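In other gene groups of liver, few members were called between Gl-1 and HCD. Of all genes, 1.48% were called higher and 0.996% lower. Of 17 measured genes of iron handling 2 were lower, Hamp2 and Smad6, an inhibitor of BMP signalling (-0.37, adjusted p = 0.00926). Of 12 cytosolic heat shock genes the mitochondrial chaperonin gene Hspd1 was higher (0.29, adjusted p = 0.0377). Of 7 measured Cyp3a genes Cyp3a57 was higher (0.69, adjusted p = 0.0384), and of 13 xenobiotic receptor and PPAR genes Alas1, which starts haem synthesis, was higher (0.42, adjusted p = 0.00327). Among 17 genes of growth hormone and thyroid hormone, Dio1 was higher and Igfbp3, a carrier of insulin-like growth factors, was lower (-0.32, adjusted p = 0.0215). None of 12 clock repressors and related factors was called. With 1 array left out, Alas1 passed in 6 of 6 fits, Smad6 in 5, Cyp3a57 and Igfbp3 in 2 each and Hspd1 in 1. None of the called genes of these groups was called in the fit on the liver arrays alone.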
